A study of Mus musculus with 36 samples.

Results

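The mitochondrial ribosomal protein genes are the nuclear genes named Mrpl or Mrps with a number, for the large and the small subunit of the ribosome inside mitochondria. A name match in the deposited expression table found 77 of 48709 genes, 48 of them Mrpl and 29 Mrps, and 5 further entries whose names mark them as pseudogenes were left out. The rule used names only and no measured value. RNA was sequenced from dissociated cells of the stria vascularis, the vascular epithelium of the cochlear lateral wall that secretes potassium into endolymph, in inbred mice given as CBA in the labels and CBA/J in the study. The ages were 1 month (P30 in the sample titles), 9 months and 26 months, all of either sex and untreated, with 3 libraries (A, B and C) at each age. Each library came from 4 cochleae of 2 mice pooled, holding marginal, intermediate and basal cells together, an estimated 1000 cells, and was sequenced in 4 runs. The labels describe digestion with trypsin and the study's methods with collagenase. A notes sheet writes 28 months beside the columns named for 26 months, and the labels' age is used here. The labels call the libraries of an age independent, whereas the study's methods give the number of biological replicates in more than one way, in one place with technical repeats, so SDs and p-values measure only the spread between these libraries, which may be technical.

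The mitochondrial ribosome, or mitoribosome, translates the few proteins encoded by the mitochondrial genome, all of them subunits of the respiratory chain or of ATP synthase. Its RNAs are made inside the organelle, while every one of its proteins is encoded in the nucleus, made in the cytosol and imported. The small subunit binds and decodes the messenger RNA, and the large subunit forms the peptide bond and feeds the new chain towards the inner membrane. Marginal cells of the stria carry many mitochondria, which fuel the sodium pumps behind potassium secretion, and several human hearing loss genes act in mitochondrial translation.

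Levels are given as RPKM, the reads on a gene scaled to its transcript length and to the library's mapped reads. The study's methods give an approximate number of reads per sample. The mapped reads of each library are unknown, so no counting error can be given. The number of genes at 0.1 RPKM or more ran from 14818 in 1 library of 1 month to 15315 in 1 library of 26 months. Markers of the strial cell types reached that level in at least 3 libraries for 10 of 10 marginal, 9 of 10 intermediate and 7 of 7 basal cell genes, against 2 of 8 hair cell genes. The summed hair cell level lay between 0.63 and 2.78 RPKM. Summed levels of several cell types moved with age. The 10 marginal cell genes, summed, lay between 3003 and 3078 RPKM at 1 month and between 4464 and 4620.5 RPKM at 9 months. At 26 months they lay between 3630 and 3652 RPKM. The 10 intermediate cell genes, summed, lay between 3996 and 4195 RPKM over all ages. The 9 endothelium and pericyte genes, summed, lay between 43 and 49 RPKM, 89 and 90 RPKM and 87 and 89 RPKM at these ages. The summed level of 10 red cell and neutrophil genes lay between 3160 and 3269 RPKM at 1 month, between 373 and 465 RPKM at 9 months and between 691 and 735 RPKM at 26 months, and that of 10 macrophage genes between 164 and 170 RPKM, 336 and 350 RPKM and 1121 and 1138 RPKM at the same ages. The 7 basal cell genes, summed, lay between 1060 and 1069 RPKM, 1681 and 1734 RPKM and 983 and 999 RPKM, and 8 genes of spiral ligament fibrocytes, cells of the neighbouring tissue, between 133 and 134 RPKM, 575 and 606 RPKM and 261 and 263 RPKM. Such sums are weighted to the most abundant genes of a list, and single genes can move otherwise. For 9 against 1 month the median log2 fold change was 0.92 over 9 intermediate cell genes. It was 0.07 over the 10 macrophage genes and 0.27 over all genes tested. The part of these shifts in the results below was not tested. In pooled cells, fewer cells of a type and less RNA per cell cannot be told apart. Within an age, 5 of 9 pairs of libraries differed by a median of less than 2% over the 500 most abundant genes, namely B and C at 1 month, A and C at 9 months and all pairs at 26 months, and counts are also given with such libraries averaged, which leaves fewer libraries and changes the calls of all genes too. Averaging leaves 1 value at 26 months, so the spread in that fit comes from libraries of 1 and 9 months only. An adjusted p after averaging is one from that fit. For comparisons with 26 months it holds no measure of the spread at that age.

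Promoters are shown for 6 members on which the results turn: Mrps6 and Mrpl34, the members with the largest fold changes, Mrpl46 and Mrps11, which face each other on chromosome 7, Mrps18b, which was highest at 26 months, and Mrps21, the most abundant Mrps gene. Each is the RefSeq window on GRCm38.p6 from 250 bases before to 50 bases after the start, written 5′ to 3′ on the gene's strand. Capitals mark matches, on either strand, to GCGCANGCG (the core of the site for the respiratory factor NRF1), CCGGAAG (a core of ETS factors such as GABP) or AAGATGGCG (a core of YY1), factors known to act on nuclear genes of mitochondrial proteins.
Mrps6, chr16:92058086-92058385, plus strand: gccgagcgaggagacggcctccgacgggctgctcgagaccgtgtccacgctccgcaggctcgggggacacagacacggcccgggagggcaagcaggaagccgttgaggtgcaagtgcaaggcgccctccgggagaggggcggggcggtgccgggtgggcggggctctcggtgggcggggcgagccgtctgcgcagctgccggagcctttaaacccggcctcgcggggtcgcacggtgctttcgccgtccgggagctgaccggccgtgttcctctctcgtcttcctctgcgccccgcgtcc
Mrpl34, chr8:71464676-71464975, plus strand: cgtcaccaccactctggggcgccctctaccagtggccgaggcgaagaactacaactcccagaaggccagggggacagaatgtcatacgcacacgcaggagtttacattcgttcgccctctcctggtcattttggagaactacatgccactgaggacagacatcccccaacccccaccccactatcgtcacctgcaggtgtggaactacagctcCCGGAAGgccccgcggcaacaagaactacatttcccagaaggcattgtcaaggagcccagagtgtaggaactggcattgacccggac
Mrpl46, chr7:78783040-78783339, minus strand: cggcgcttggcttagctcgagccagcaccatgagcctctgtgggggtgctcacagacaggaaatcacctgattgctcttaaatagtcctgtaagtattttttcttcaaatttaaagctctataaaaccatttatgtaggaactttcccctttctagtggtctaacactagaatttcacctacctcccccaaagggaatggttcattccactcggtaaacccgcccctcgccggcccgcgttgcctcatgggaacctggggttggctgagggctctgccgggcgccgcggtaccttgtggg
Mrps11, chr7:78782881-78783180, plus strand: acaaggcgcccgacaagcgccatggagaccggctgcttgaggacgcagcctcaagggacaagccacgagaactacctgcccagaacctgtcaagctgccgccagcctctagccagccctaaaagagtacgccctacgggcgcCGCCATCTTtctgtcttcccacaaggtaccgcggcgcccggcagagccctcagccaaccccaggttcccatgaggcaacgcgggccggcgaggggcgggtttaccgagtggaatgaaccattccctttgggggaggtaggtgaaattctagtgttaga
Mrps18b, chr17:35916391-35916690, minus strand: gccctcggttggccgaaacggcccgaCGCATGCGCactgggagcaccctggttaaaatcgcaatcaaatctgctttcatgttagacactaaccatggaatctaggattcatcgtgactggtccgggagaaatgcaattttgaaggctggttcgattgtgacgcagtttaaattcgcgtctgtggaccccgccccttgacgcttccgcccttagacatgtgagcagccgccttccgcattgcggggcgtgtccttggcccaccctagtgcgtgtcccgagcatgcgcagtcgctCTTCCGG
Mrps21, chr3:95871465-95871764, minus strand: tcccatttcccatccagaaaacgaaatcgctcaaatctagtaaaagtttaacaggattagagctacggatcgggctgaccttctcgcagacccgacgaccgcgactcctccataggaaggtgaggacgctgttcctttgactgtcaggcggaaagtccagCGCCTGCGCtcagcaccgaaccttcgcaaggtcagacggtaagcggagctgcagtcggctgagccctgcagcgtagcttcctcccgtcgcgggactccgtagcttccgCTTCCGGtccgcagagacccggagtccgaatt

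RefSeq windows were found for 68 of 77 members. The ETS core was in 24 of these 68 (35.3%), against 16.8% of 10703 windows of protein-coding genes tested and 9.12% of all 27025 windows. The NRF1 core was in 16 (23.5%), against 13.0% and 6.47%, and the YY1 core in 8 (11.8%), against 2.98% and 1.49%. A match is a description of the letters and not a binding site. By subunit, the ETS core was in 13 of 42 Mrpl and 11 of 26 Mrps windows, and the NRF1 core in 12 of 42 Mrpl and 4 of 26 Mrps windows. Median GC content was 58.2% for the members' windows and 60.7% for those of protein-coding genes tested. The Mrpl46 and Mrps11 windows share 141 bases, read on opposite strands, and the windows of Mrps6 and Mrpl46 hold 0 matches. These spellings were chosen after the promoters had been searched.

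All 77 members passed the filter on low values, at least 0.1 RPKM in at least 3 libraries, which 15806 genes passed. Their mean over the 9 libraries ran from 2.29 RPKM for Mrps22 to 165 RPKM for Mrpl42, with a median of 18.4 RPKM, against 3.32 RPKM for all genes tested. In a limma model with 1 mean per age, 68 of 77 members (88.3%) differed over the 3 ages at an adjusted p of at most 0.1, against 86.3% of all genes tested. The mean was highest at 1 month for 59 of 77 members (76.6%), against 19.9% of all genes tested, as the map of all members by library shows.

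**Figure D1:**
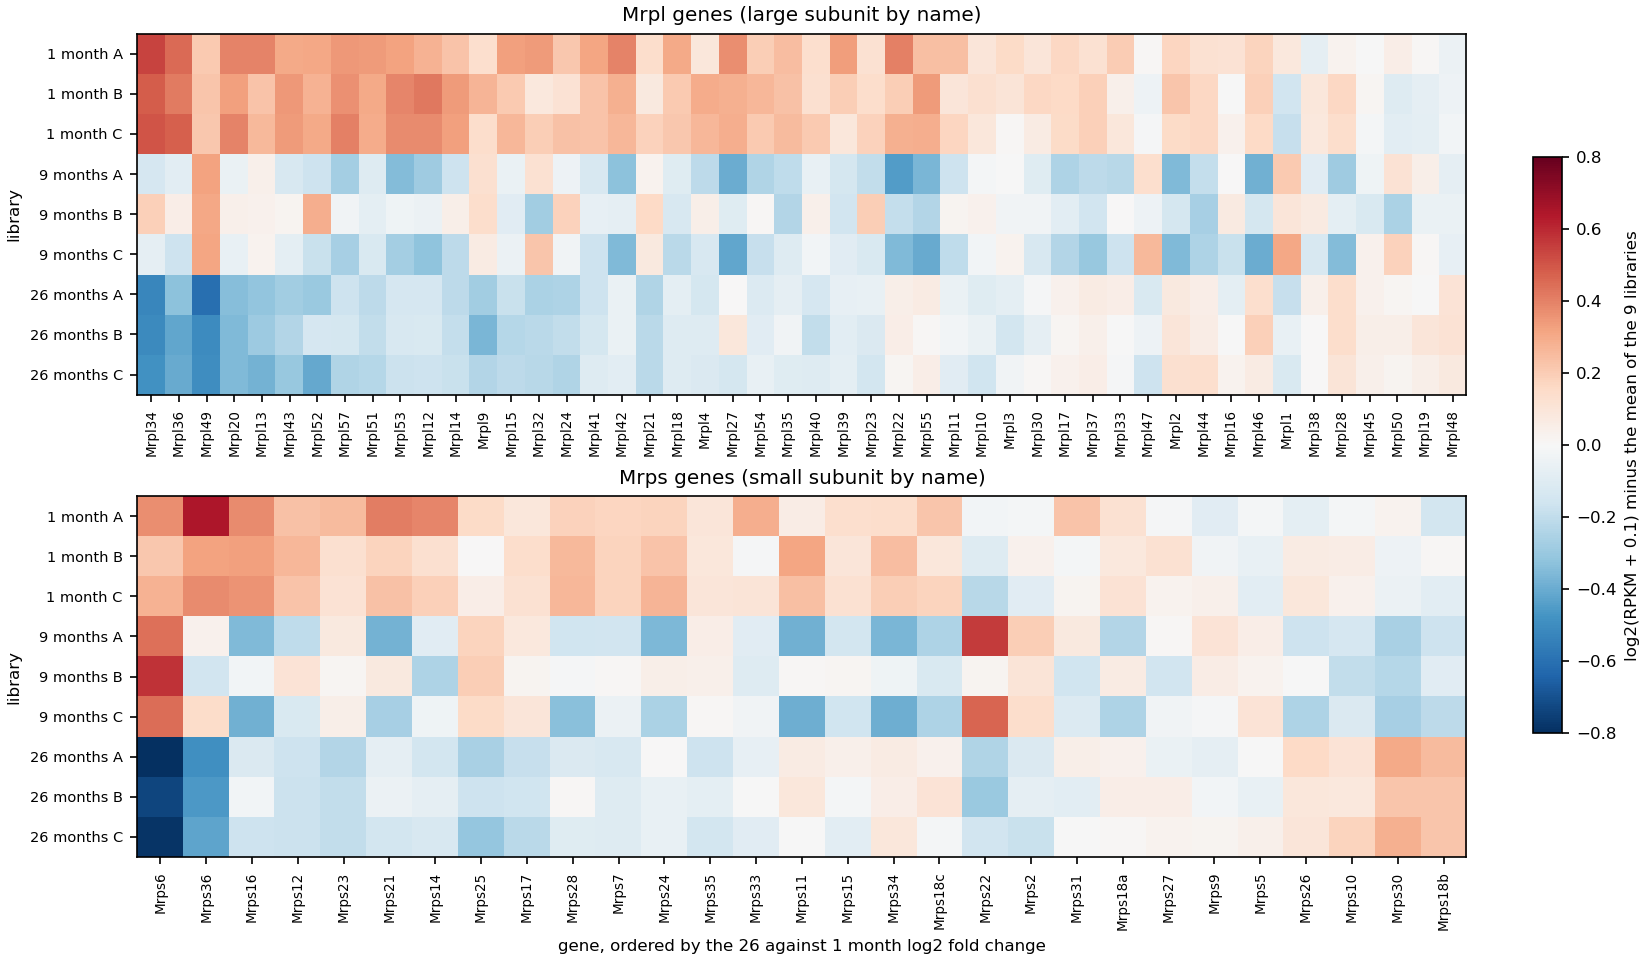
Level of each of the 77 members in each library, as log2(RPKM + 0.1) minus the member's mean over the 9 libraries, with Mrpl genes above and Mrps genes below, libraries down the page and genes ordered by their change between 1 and 26 months. Most columns are red (above the mean) at 1 month, and the 26-month libraries of Mrps6, Mrps36, Mrpl34 and Mrpl49 are deep blue.

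Between 1 and 9 months, most of the genes had lower levels at 9 months. Of 77 members, 53 fell and 6 rose at an adjusted p of at most 0.1, whereas 17.4% of all genes tested were lower and 54.7% were higher by the same call. The median log2 fold change was -0.26 over the members and 0.27 over all genes tested, a difference of -0.53. No member passed the additional threshold of an absolute log2 fold change of 1, which 1.47% of all genes passed as lower and 10.1% as higher. The members that fell most were Mrpl22 (-0.63), Mrpl55 (-0.63), Mrpl27 (-0.62), Mrps16 (-0.61) and Mrpl53 (-0.58), all as log2 fold changes. Mrpl22 lines the exit of the peptide tunnel in bacterial ribosomes, and its level was 15.2, 18.2 and 16.2 RPKM at 9 months, against 27.6, 23.9 and 25.4 RPKM at 1 month. Mrpl55, a protein of the large subunit, had 29.9, 32.7 and 29.1 RPKM at 9 months, against 45.6, 48.8 and 47.1 RPKM at 1 month, with no overlap of the 2 ages. Mrps16, a small subunit protein with a bacterial homolog, had 33.9, 42.7 and 33.2 RPKM at 9 months, against 56.2, 54.3 and 55.5 RPKM at 1 month. In each of the 3 genes library B at 9 months was the nearest to 1 month, and over all members its summed level was 1917 RPKM, against 1705 and 1712 RPKM in libraries A and C of that age.

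The 6 members that were higher at 9 months than at 1 month were Mrps22 (0.47), Mrpl1 (0.29), Mrps6 (0.20), Mrps2 (0.17), Mrps5 (0.12) and Mrpl49 (0.10), as log2 fold changes, but Mrps22, Mrpl1, Mrps2 and Mrps5 were negative after quantile normalization, Mrpl1, Mrps2, Mrps5, Mrps6 and Mrpl49 after median of ratios scaling, and Mrpl1 and Mrps5 with the length trend removed. Mrps22 had 3.35, 2.27 and 3.12 RPKM at 9 months, against 2.20, 2.08 and 1.90 RPKM at 1 month, and library B at 9 months lay close to the 1-month values. Median of ratios scaling and quantile normalization put the median over all genes tested at 0.0038 and -0.0048 on the log2 scale, against 0.27 with RPKM as deposited, with 5647 genes higher and 5558 lower and 5186 higher and 5364 lower, against 8648 higher and 2746 lower. With them 74 and 73 of 77 members fell, and 0 and 1 rose. With median of ratios scaling the members not called were Mrpl1, Mrps6 and Mrps22. With near-identical libraries averaged, 34 members (44.2%) fell and 0 rose, against 10.3% of all genes lower and 43.5% higher. The adjusted p after averaging was 0.016 for Mrpl22, 0.010 for Mrpl55, 0.025 for Mrpl27, 0.033 for Mrps16 and 0.026 for Mrpl53.

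Between 9 and 26 months the members moved both ways. At an adjusted p of at most 0.1, 21 of 77 rose and 25 fell, against 29.0% of all genes higher and 33.7% lower, and the medians were 0.02 over the members and -0.03 over all genes tested. These shares, 27.3% and 32.5% of the members, lie near those of all genes. At the fold threshold Mrps6 was the only member called lower and 0 members were called higher, against 4.05% and 3.28% of all genes. With near-identical libraries averaged, the calls without a fold threshold were 4 members higher (5.19%) and 7 lower (9.09%), against 12.2% and 15.7% of all genes. Without library B of 9 months they were 32 higher (41.6%) and 25 lower (32.5%), against 30.5% and 38.4% of all genes.

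**Figure D2:**
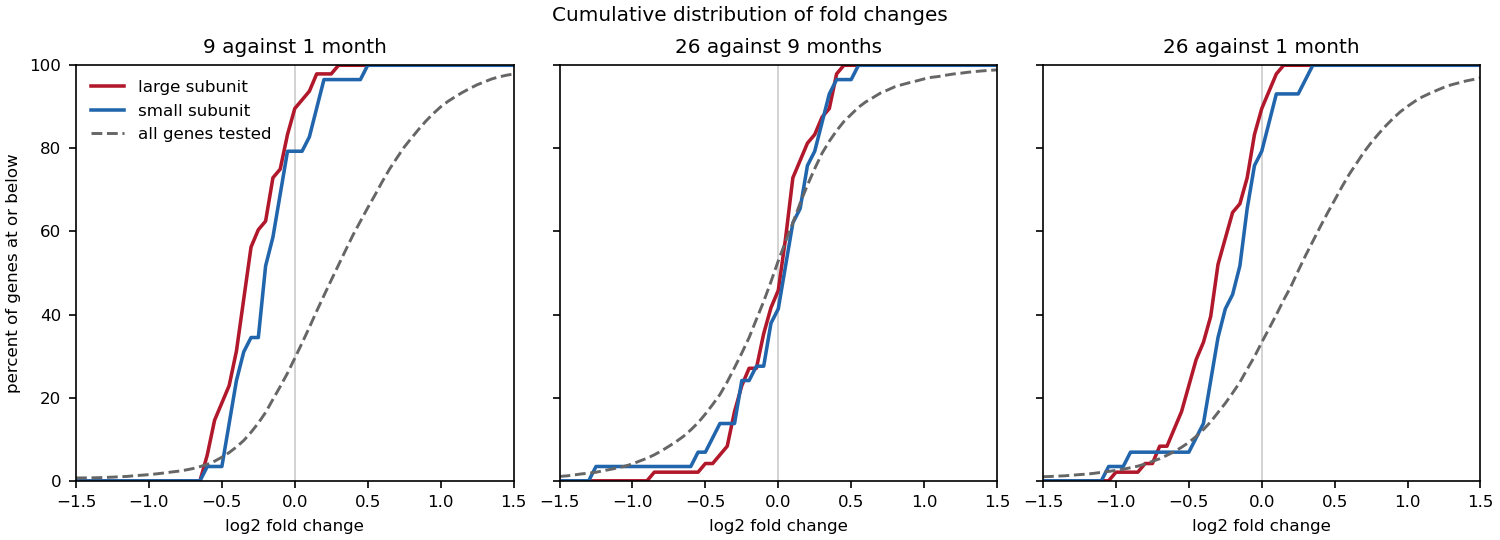
Share of genes, in percent, at or below each log2 fold change (x axis) for the 48 large subunit genes (red), the 29 small subunit genes (blue) and all 15806 genes tested (grey, dashed) in each comparison. For 9 against 1 month and 26 against 1 month the members' curves lie left of all genes around their medians of -0.26 and -0.26. They cross at the left end. For 9 against 1 month 0% of large and small subunit genes lie at or below -0.65, against 3.42% of all genes. For 26 against 9 months the medians are near each other (0.02 and -0.03) and the members' curves narrower. There 4.17% of large and 6.90% of small subunit genes lie at or below -0.5, against 16.1% of all genes.

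Between 1 and 26 months, 51 of 77 members fell and 3 rose, against 21.2% of all genes lower and 52.7% higher, with medians of -0.26 and 0.24. At the fold threshold Mrps6 and Mrpl34 were called lower and 0 members higher, against 2.51% and 9.92% of all genes. The 3 members that rose were Mrps18b (0.31), Mrps30 (0.29) and Mrpl48 (0.14), although Mrps30 and Mrpl48 were negative when the trend with exon length was removed, and Mrpl48 also under both other scalings. With median of ratios scaling Mrps18b (0.05, adjusted p = 0.51) and Mrps30 (0.03, adjusted p = 0.63) no longer passed the test. The other 75 members were then called lower and 0 higher, against 35.6% and 36.7% of all genes. Quantile normalization gave 72 members lower and 2 higher, against 35.3% and 35.1% of all genes. With near-identical libraries averaged, 28 members (36.4%) fell and 2 rose, against 11.8% of all genes lower and 37.2% higher, and Mrpl48 no longer passed the test (adjusted p after averaging = 0.29). The comparisons share libraries, so their counts are not independent of each other.

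Mrps6 was lowest at 26 months. It encodes a small subunit protein with a homolog in the bacterial ribosome, and lies at chr16:92058270-92112227 on the plus strand of GRCm38. Its level was 77.1, 69.0 and 71.9 RPKM at 1 month, 80.7, 88.7 and 81.0 RPKM at 9 months and 33.8, 35.8 and 34.5 RPKM at 26 months. The 3 values at 26 months lay below all others. The log2 fold change was -1.26 ± 0.05 SE, adjusted p = 1.8e-07 for 26 against 9 months, and -1.06 ± 0.05 SE, adjusted p = 2.3e-07 for 26 against 1 month, in the limma model. For 9 against 1 month it was 0.20 ± 0.05 SE, adjusted p = 0.0088, but -0.10 with median of ratios scaling, and the adjusted p after averaging was 0.15. Mrps6 shares 159 exonic bases on the same strand with Slc5a3, a myo-inositol transporter gene whose annotated start lies within the printed promoter window. It also shares 305 exonic bases on the same strand with Gm49711, a protein-coding gene that is not in the deposited expression table. How shared reads were counted is not given in the sources used here. Slc5a3 had 6.08, 5.12 and 5.50 RPKM at 1 month, 21.8, 14.2 and 23.0 RPKM at 9 months and 15.9, 16 and 16.5 RPKM at 26 months, with log2 fold changes of -0.25 ± 0.16 SE, adjusted p = 0.2 for 26 against 9 months and 1.77 ± 0.16 SE, adjusted p = 7.6e-06 for 9 against 1 month. Slc5a3 was lowest at 1 month, and Mrps6 at 26 months.

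Mrpl34 encodes a short large subunit protein with a bacterial homolog, at chr8:71464959-71465747. It had 72.7, 70.1 and 70.9 RPKM at 1 month, 45.6, 57.0 and 47.6 RPKM at 9 months and 34.8, 35.1 and 35.7 RPKM at 26 months, with the 3 ages separate from each other. Its log2 fold changes were -1.02 ± 0.07 SE, adjusted p = 1.8e-06 for 26 against 1 month, -0.50 ± 0.07 SE, adjusted p = 0.00031 for 26 against 9 months and -0.51 ± 0.07 SE, adjusted p = 0.00018 for 9 against 1 month. The 26 against 1 month change lies just past the fold threshold, and was -0.84 with the length trend removed. Mrpl36, whose bacterial homolog is a small zinc-binding protein, showed the same order of ages, with 66.5, 64.8 and 67.6 RPKM at 1 month, 45.7, 50.4 and 43.2 RPKM at 9 months and 38.6, 36.5 and 36.7 RPKM at 26 months, and a log2 fold change of -0.83 ± 0.06 SE, adjusted p = 1.3e-06 for 26 against 1 month. After averaging, the adjusted p for 26 against 9 months was 0.111 for Mrpl36, which misses the threshold, and 0.073 for Mrpl34.

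Mrpl49, a large subunit protein with no bacterial counterpart, at chr19:6053622-6057785, had 25.8, 26.0 and 25.9 RPKM at 1 month, 27.9, 27.6 and 27.8 RPKM at 9 months and 14.7, 15.7 and 15.8 RPKM at 26 months. The spread within the first 2 ages was small, and the 26-month values were all lower. The log2 fold change was -0.85 ± 0.04 SE, adjusted p = 2.5e-07 for 26 against 9 months and -0.75 ± 0.04 SE, adjusted p = 2.4e-07 for 26 against 1 month. Its neighbour Fau, a fusion of a ubiquitin-like and a cytosolic ribosomal protein, starts 59 bases away on the other strand, and had a log2 fold change of 0.24 ± 0.07 SE, adjusted p = 0.015 for 26 against 9 months.

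Mrps36 is named as a small subunit gene but is now known to encode a subunit of the 2-oxoglutarate dehydrogenase complex. Its values were 45.4, 36.2 and 37.8 RPKM at 1 month, 29.7, 26.1 and 32.1 RPKM at 9 months and 20.6, 21.02 and 21.6 RPKM at 26 months, and its log2 fold changes -0.47 ± 0.09 SE, adjusted p = 0.0022 for 26 against 9 months and -0.91 ± 0.09 SE, adjusted p = 2e-05 for 26 against 1 month. Mrps22, the least abundant member, had 1.88, 1.8 and 2 RPKM at 26 months, against 3.35, 2.27 and 3.12 RPKM at 9 months, a log2 fold change of -0.58 ± 0.13 SE, adjusted p = 0.0037. Library B of 9 months lay nearer the 26-month values than A and C did. After averaging, the adjusted p for 26 against 9 months was 0.17 for Mrps36 and 0.21 for Mrps22, so neither passed the test.

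The largest rise between 9 and 26 months among the members was that of Mrps30, with 20.9, 19.8 and 20.7 RPKM at 26 months, against 14.2, 14.5 and 14.1 RPKM at 9 months. Its log2 fold change was 0.52 ± 0.04 SE, adjusted p = 5.6e-06, and it was -0.23 for 9 against 1 month. Mrps30 was named for the small subunit but sits in the large subunit in structures of the mammalian mitoribosome. Mrpl46 had 20.8, 21.6 and 19.7 RPKM at 26 months, against 14.4, 17.1 and 14.3 RPKM at 9 months and rose by 0.44 ± 0.07 SE, adjusted p = 0.00046. Mrpl2, whose bacterial homolog lies at the peptidyl transferase centre, and Mrpl28 had log2 fold changes of 0.38 ± 0.06 SE, adjusted p = 0.00041 and 0.36 ± 0.07 SE, adjusted p = 0.0015. After averaging, only Mrps30 of these 4 passed the test for 26 against 9 months (adjusted p = 0.036), with 0.115 for Mrpl46, 0.13 for Mrpl2 and 0.19 for Mrpl28. All 4 had fallen between 1 and 9 months, Mrpl28 not after averaging, and for Mrpl46, Mrpl2 and Mrpl28 the difference of 26 against 1 month did not pass the test, with adjusted p = 0.58, 0.25 and 0.84 in limma. That outcome depended on the scaling. With median of ratios scaling Mrpl46, Mrpl2 and Mrpl28 were all called lower for 26 against 1 month. Mrpl55 and Mrpl22, among the largest falls between 1 and 9 months, also rose between 9 and 26 months. In limma Mrpl55 changed by 0.38 ± 0.05 SE, adjusted p = 0.00016, and Mrpl22 by 0.37 ± 0.07 SE, adjusted p = 0.0018. After averaging, the value for Mrpl22 was 0.33. For 26 against 1 month both were still lower, with -0.25 for Mrpl55 and -0.26 for Mrpl22.

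**Figure D3:**
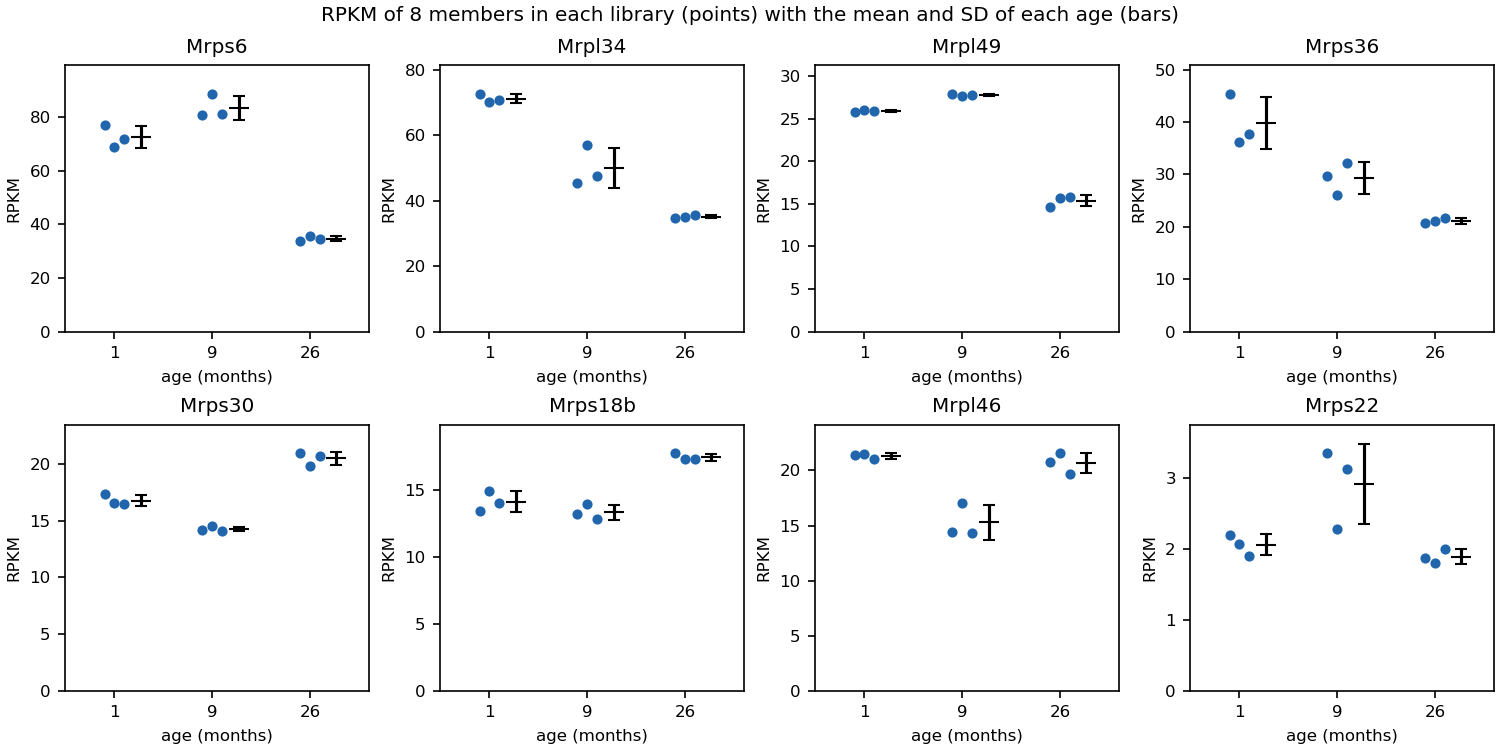
RPKM (y axis, from 0) of 8 members in each of the 9 libraries by age in months, with blue points for libraries and black bars for the mean and SD of 3 libraries. Mrps6 and Mrpl49 are lower only at 26 months, Mrpl34 and Mrps36 are lower at each later age, and Mrpl46 is lowest at 9 months, with means of 21.3 RPKM at 1 month, 15.3 RPKM at 9 months and 20.7 RPKM at 26 months.

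The 3 paralogs of bacterial S18 were compared, Mrps18b and Mrps18c being small subunit proteins and Mrps18a a protein placed in the large subunit in structures. Mrps18b had 13.4, 14.9 and 14.0 RPKM at 1 month, 13.2, 13.9 and 12.8 RPKM at 9 months and 17.8, 17.3 and 17.3 RPKM at 26 months. Its values at 26 months all lay above both other ages. Mrps18c had 33.1, 30.2 and 32.0 RPKM at 1 month, 23.9, 26.0 and 23.9 RPKM at 9 months and 29.1, 30.5 and 28.02 RPKM at 26 months, and was lowest at 9 months. Mrps18a had 13.7, 13.4 and 13.7 RPKM at 1 month, 10.7, 13.2 and 10.6 RPKM at 9 months and 12.9, 13.1 and 12.7 RPKM at 26 months, and library B of 9 months lay between the values of the other ages. Their log2 fold changes for 26 against 9 months were 0.39 ± 0.05 SE, adjusted p = 0.00015 for Mrps18b, 0.25 ± 0.05 SE, adjusted p = 0.0033 for Mrps18c and 0.17 ± 0.08 SE, adjusted p = 0.083 for Mrps18a. For 9 against 1 month Mrps18b did not pass the test (-0.08 ± 0.05 SE, adjusted p = 0.17), whereas Mrps18c (-0.37) and Mrps18a (-0.25) fell. With median of ratios scaling all 3 paralogs were called lower for 9 against 1 month. The call of Mrps18a for 26 against 9 months was lost with quantile normalization, with no filter on low values, with no mean-variance trend, in the fit on 2 ages and without any single library other than B of 9 months (adjusted p from 0.104 to 0.25). After averaging, the adjusted p for 26 against 9 months was 0.084 for Mrps18b, 0.21 for Mrps18c and 0.62 for Mrps18a, and Mrps18a did not pass the test for 9 against 1 month either (0.26). Differences between the paralogs were not tested.

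At the stalk of the large subunit, which recruits the translation factors, Mrpl10 anchors copies of Mrpl12 and Mrpl11 forms the base. Mrpl12, which also binds the mitochondrial RNA polymerase, had 53.1, 58.6 and 56.9 RPKM at 1 month, 35.8, 42.3 and 34.9 RPKM at 9 months and 39.9, 40.2 and 38.9 RPKM at 26 months and the largest drop of the 3, -0.58 ± 0.07 SE, adjusted p = 7e-05 for 9 against 1 month. Mrpl11 changed by -0.28 and Mrpl10 by -0.11 on the same scale, both past the test. For 26 against 9 months Mrpl10 fell (-0.10 ± 0.04 SE, adjusted p = 0.05), and Mrpl11 and Mrpl12 did not pass the test, with log2 fold changes of 0.06 and 0.08. This call of Mrpl10 was lost with median of ratios scaling (-0.06, adjusted p = 0.30), with the length trend removed (adjusted p = 0.106), without library A (adjusted p = 0.109) or C (adjusted p = 0.18) of 26 months and after averaging (adjusted p = 0.44). For 9 against 1 month the adjusted p after averaging was 0.028 for Mrpl12, 0.11 for Mrpl11 and 0.33 for Mrpl10.

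Among the most abundant members, Mrpl42 had 214, 199 and 195 RPKM at 1 month, 130, 155 and 127 RPKM at 9 months and 157, 157 and 154 RPKM at 26 months, Mrpl4 averaged 104 ± 7.82, 84.0 ± 7.62 and 82.3 ± 1.02 RPKM over the same ages (SD, n = 3 each), and Mrps21, whose bacterial homolog is a small protein of the small subunit, averaged 105 ± 8.87, 76.6 ± 13.0 and 81.4 ± 2.87 RPKM. These 3 fell between 1 and 9 months, with log2 fold changes of -0.57, -0.32 and -0.46, and adjusted p after averaging of 0.027, 0.16 and 0.0986, so that Mrpl4 no longer passed the test. Mrpl19, Mrps9 and Mrpl47, all with a mean under 4 RPKM, did not pass the test for 9 against 1 month, with log2 fold changes of 0.05, 0.08 and 0.13. Mrps35 (-0.06) did not pass it either. With median of ratios scaling Mrpl19, Mrps9, Mrpl47 and Mrps35 were all called lower for 9 against 1 month.

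Variants of human MRPS2, MRPS7 and MRPL50 have been linked to hearing loss. Mrps2 had 7.97, 8.28 and 7.55 RPKM at 1 month, 9.25, 8.68 and 8.90 RPKM at 9 months and 7.42, 7.67 and 7.10 RPKM at 26 months. It fell between 9 and 26 months, -0.27 ± 0.05 SE, adjusted p = 0.0016, but did not pass the test after averaging (adjusted p = 0.14). Mrps7 fell between 1 and 9 months (-0.24 ± 0.05 SE, adjusted p = 0.0012) and did not pass the test between 9 and 26 months (-0.05). Mrpl50 had 12.8, 11.5 and 11.7 RPKM at 1 month, 13.4, 10.4 and 14.1 RPKM at 9 months and 12.5, 12.8 and 12.6 RPKM at 26 months and passed the test in none of the 3 comparisons in limma, with adjusted p = 0.62 for 9 against 1 month, 0.92 for 26 against 9 months and 0.53 for 26 against 1 month. With median of ratios scaling Mrpl50 was called lower for 9 against 1 month and for 26 against 1 month.

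The subunits were then compared over the 9 libraries. Summed over the 48 Mrpl genes, the level was 1542, 1545 and 1539 RPKM at 1 month, 1137, 1279 and 1136 RPKM at 9 months and 1197, 1205 and 1189 RPKM at 26 months. Over the 29 Mrps genes it was 736, 694 and 705 RPKM at 1 month, 567, 639 and 576 RPKM at 9 months and 566, 576 and 558 RPKM at 26 months. Both sums were higher in every 1-month library than in any later library, and the 2 later ages overlapped in both. Of the RPKM summed over all genes, the members made up 0.621% at 1 month, 0.523% at 9 months and 0.506% at 26 months, as means of 3 libraries.

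The Mrpl sum was 2.17 ± 0.07 times the Mrps sum at 1 month, 1.99 ± 0.02 times at 9 months and 2.11 ± 0.02 times at 26 months (mean ± SD of 3 libraries). The ratio was lower in the 3 libraries of 9 months (1.97 to 2.01) than in any library of the other ages (2.09 to 2.23), which overlapped with each other. The order of the ages rested on single abundant genes: without Mrpl42 and Mrps6, a choice made after seeing the data, the Mrpl sum was 2.10 ± 0.07, 2.05 ± 0.02 and 1.96 ± 0.02 times the Mrps sum at the 3 ages, lowest at 26 months. Medians gave that order too: the difference between the Mrpl and the Mrps median of log2(RPKM + 0.1) was 0.36 ± 0.03 at 1 month, 0.24 ± 0.04 at 9 months and 0.09 ± 0.04 at 26 months, without overlap of the ages. Placing Mrps18a and Mrps30 in the large subunit and Mrps36 in neither moved the ratios to 2.45, 2.25 and 2.40 at 1, 9 and 26 months. The 5 mitoribosome subunits with other names were in neither sum, so these are not ratios of the whole subunits.

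By member, 35 of 48 Mrpl genes fell and 2 rose for 9 against 1 month, with a median log2 fold change of -0.33, and 18 of 29 Mrps genes fell and 4 rose, with a median of -0.20. For 26 against 9 months, 13 Mrpl genes rose and 17 fell (median 0.02), and 8 Mrps genes rose and 8 fell (median 0.05). For 26 against 1 month, 35 Mrpl genes fell and 1 rose (median -0.31), and 16 Mrps genes fell and 2 rose (median -0.15). Of all genes tested, 17.4% fell and 54.7% rose for 9 against 1 month, and 21.2% fell and 52.7% rose for 26 against 1 month. For 26 against 9 months 29.0% rose and 33.7% fell, near the shares of all members (27.3% and 32.5%). The difference between the subunits was not tested, since the genes of a subunit are not replicates. Members with and without a homolog in the bacterial ribosome, 48 and 29 genes, had medians of -0.27 and -0.23 for 9 against 1 month and 0.01 and 0.05 for 26 against 9 months.

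**Figure D4:**
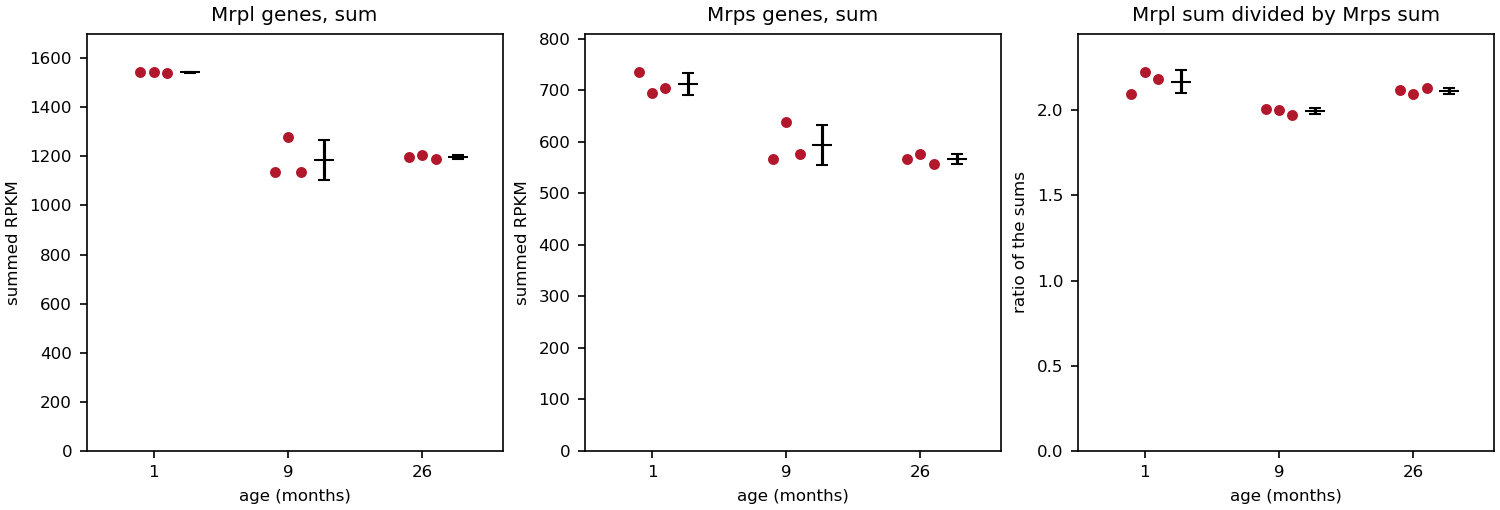
Summed RPKM of the 48 Mrpl genes and of the 29 Mrps genes, and the ratio of the 2 sums, in each library (red points) by age in months, with the mean and SD of 3 libraries (black bars) and axes from 0. Both sums are highest at 1 month, and the ratio is lowest at 9 months, 1.99 ± 0.02, but not without Mrpl42 and Mrps6.

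Transcript length moved with the fold changes of all genes. In 5 groups of all genes tested, of equal size by exon length, the median log2 fold change for 9 against 1 month went up with length, -0.09, 0.08, 0.26, 0.42 and 0.62, and the members are short, with a median exon length of 2255 bases against 3943 for all genes tested. In the shortest group, 29 of 31 members fell and 2 rose, against 35.6% of all genes lower and 21.9% higher, and the median was -0.39 over the members. In the other groups the members' medians were -0.17 over 20 genes, -0.20 over 10, -0.05 over 9 and -0.24 over 7, each below that of all genes of the same group. For 26 against 1 month the members' medians over the 5 groups were -0.34, -0.19, -0.11, -0.17 and -0.13, against -0.10, 0.06, 0.25, 0.38 and 0.51 over all genes. After removal of each library's trend on exon length, 69 members fell and 2 rose for 9 against 1 month, 63 fell and 1 rose for 26 against 1 month, and 21 (27.3%) fell and 25 (32.5%) rose for 26 against 9 months. Of all genes, 31.0% were then higher and 33.7% lower for 9 against 1 month, 33.9% higher and 35.0% lower for 26 against 1 month, and 33.5% higher and 30.8% lower for 26 against 9 months, the last near the members' shares.

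**Figure D5:**
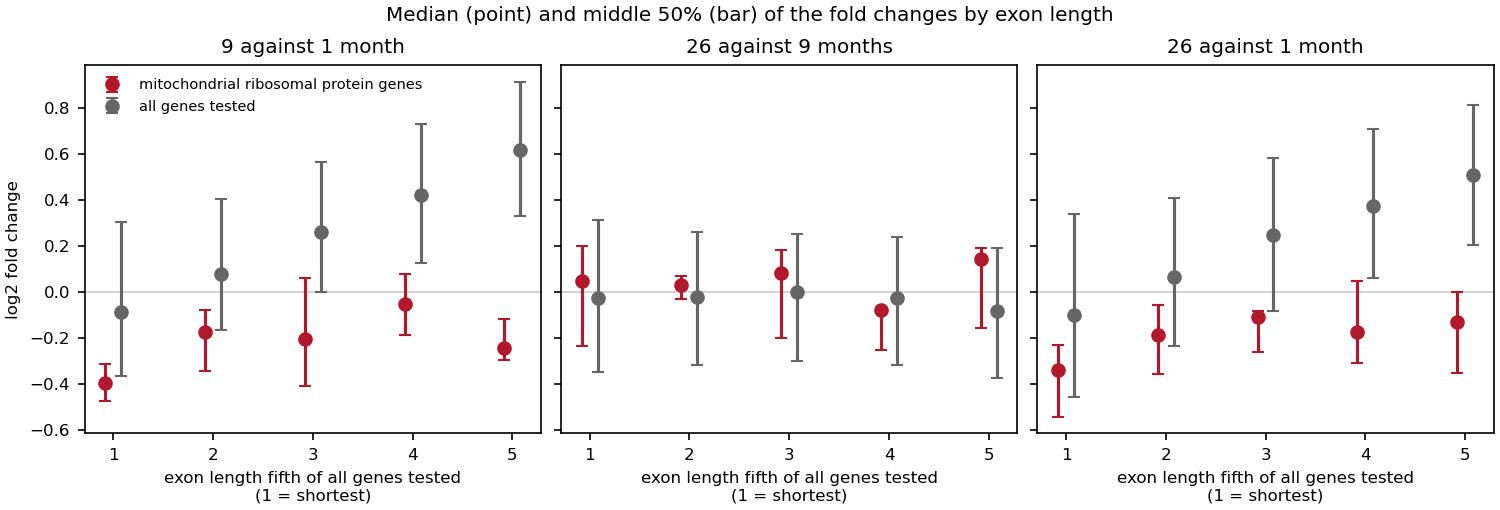
Log2 fold change (y axis) by exon length in 5 groups of equal size, the shortest (1) to the longest (5), for the members (red) and for all genes tested (grey), with points for medians and bars for the middle 50%. For 9 against 1 month the median of all genes is -0.09 in the shortest and 0.62 in the longest group, and the members' median is below it in each group.

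Many members share their surroundings with another gene. A protein-coding gene on the opposite strand starts between 500 bases inside and 1000 bases outside the member's outermost start in 26 of 77 members (33.8%), against 13.4% of 14094 protein-coding genes tested. The 23 tested neighbours that are no member had a median log2 fold change of 0.02 for 9 against 1 month, 8 higher and 5 lower, whereas the 23 members beside them had a median of -0.31, 2 higher and 16 lower. Of all genes tested, 54.7% were higher and 17.4% lower by the same call. Mrpl46 and Mrps11, whose windows are printed above, had log2 fold changes of -0.48 and -0.46 for 9 against 1 month and 0.44 and 0.31 for 26 against 9 months, all past the test. After averaging, Mrps11 passed the test in neither (adjusted p = 0.15 and 0.46) and Mrpl46 only for 9 against 1 month (0.033 and 0.115). The pair shares 173 exonic bases on opposite strands. Mrpl36 and Ndufs6, a subunit of respiratory complex I, had -0.52 and -0.54 for 9 against 1 month and -0.32 and -0.26 for 26 against 9 months. Mrps18b and Ppp1r10, a regulator of protein phosphatase 1, had 0.39 and 0.36 for 26 against 9 months. In Mrps7 and Gga3, a sorting adaptor of the Golgi, the values for 9 against 1 month were -0.24 and 1.24. These pairs were chosen after their values were seen.

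Exons of 24 members overlap those of another tested gene by more than 50 bases, and for 4 of them on the same strand. The strand setting of the counting is not given in the sources used here, so reads in such stretches cannot be assigned to one gene. Of Mrpl53, 88.0% of the exonic bases lie in Gm42688, and of Mrps34 37.0% lie in Nme3, both on the same strand, while 69.8% of Mrps25 lie opposite Nr2c2. Over the 53 members without such an overlap, 37 fell and 4 rose for 9 against 1 month, with a median of -0.28, and 13 rose and 16 fell for 26 against 9 months, with a median of 0.02. Of all genes tested, 17.4% fell and 54.7% rose for 9 against 1 month, and 29.0% rose and 33.7% fell for 26 against 9 months.

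Other genes of mitochondrial translation were counted with the same call. For 9 against 1 month the counts depended on the scaling, as all genes did, and those under quantile normalization (Q), median of ratios scaling (M), removal of the length trend (T) and averaging of near-identical libraries (N) are added. Of all genes, 54.7% rose and 17.4% fell for 9 against 1 month. These shares were 32.8% and 33.9% under Q, 35.7% and 35.2% under M and 31.0% and 33.7% under T. For 26 against 9 months, 29.0% rose and 33.7% fell. Here the shares were 32.2% and 30.7% under Q, 32.0% and 30.6% under M and 33.5% and 30.8% under T. Those under N are given above. Each list's counts are to be read beside these shares. Of 5 mitoribosome subunits with other names, 2 rose and 2 fell, Aurkaip1 (-0.43) and Chchd1 (-0.16), against 0 and 3 under Q, 0 and 3 under M, 1 and 3 under T and 1 and 1 under N. Chchd1 did not pass the test under T (adjusted p = 0.34) or N (adjusted p = 0.18). Gadd45gip1 rose by a log2 fold change of 0.39, but did not pass under Q (0.03, adjusted p = 0.70) or M (0.09, adjusted p = 0.25), and Ptcd3 had one of 0.26 that was negative under Q, M and T. Dap3, the GTP-binding protein of the small subunit, did not pass the test (-0.01).

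Of 22 genes for assembly and rRNA modification, 9 rose and 7 fell for 9 against 1 month, against 0 and 15 under Q, 1 and 15 under M, 1 and 12 under T and 3 and 4 under N, and 6 rose and 7 fell for 26 against 9 months, against 10 and 7 under Q, 8 and 7 under M, 7 and 7 under T and 2 and 5 under N. Tfb1m, which methylates the small subunit rRNA, had 1.52, 1.07 and 1.48 RPKM at 26 months, against 3.98, 3.42 and 3.75 RPKM at 9 months, a log2 fold change of -1.40 ± 0.12 SE, adjusted p = 9.6e-06. Mpv17l2, which takes part in assembly at the inner membrane, had 66.0, 65.7 and 64.8 RPKM at 26 months, against 37.2, 42.5 and 35.8 RPKM at 9 months, a log2 fold change of 0.77 ± 0.07 SE, adjusted p = 2.1e-05. Of 19 translation factors, 7 rose and 4 fell for 9 against 1 month, against 0 and 12 under Q, 2 and 13 under M, 1 and 10 under T and 2 and 0 under N. For 26 against 9 months, 0 rose and 8 fell, against 4 and 5 under Q, 1 and 5 under M, 3 and 6 under T and 0 and 2 under N. Tufm, the elongation factor that brings tRNA to the ribosome, was among those that fell (-0.36 ± 0.06 SE, adjusted p = 0.001), but not under N (adjusted p = 0.104).

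Of 22 mitochondrial aminoacyl-tRNA synthetases, 11 rose and 2 fell for 9 against 1 month, against 2 and 15 under Q, 2 and 14 under M, 3 and 15 under T and 5 and 1 under N, so that the prevailing direction turned with the scaling. Lars2, the leucyl-tRNA synthetase linked to hearing loss in humans, had 80.2, 93.6 and 79.5 RPKM at 9 months, against 29.7, 29.4 and 29.6 RPKM at 1 month, a log2 fold change of 1.51 ± 0.07 SE, adjusted p = 1.2e-07, which was 0.86 under T and so below the fold threshold. Of 18 genes of mitochondrial transcription and genome upkeep, 9 rose and 4 fell, against 1 and 11 under Q, 1 and 5 under M, 2 and 6 under T and 6 and 2 under N. Of 17 genes of mitochondrial translation linked to human hearing loss, which include 3 members, 6 rose and 4 fell, against 1 and 12 under Q, 2 and 13 under M, 2 and 10 under T and 4 and 2 under N.

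Among 12 regulators of mitochondrial biogenesis, 10 rose and 1 fell for 9 against 1 month, against 4 and 4 under Q, 6 and 2 under M, 5 and 4 under T and 7 and 1 under N. Gabpa, a subunit of the ETS factor GABP, had a log2 fold change of 0.55 ± 0.12 SE, adjusted p = 0.0035, which did not pass the test under Q (0.13, adjusted p = 0.34), T (0.13, adjusted p = 0.31) or N (adjusted p = 0.13), and Nrf1 one of 0.31 ± 0.06 SE, adjusted p = 0.00095 that was negative under Q (-0.18) and T (-0.31). For 26 against 9 months 5 of the 12 rose and 5 fell, against 29.0% and 33.7% of all genes. Ppargc1a, the coactivator PGC-1alpha, had 22.1, 21.9 and 22.2 RPKM at 26 months, against 13.8, 11.97 and 13.1 RPKM at 9 months. Its log2 fold change was 0.77 ± 0.05 SE, adjusted p = 2.1e-06 in limma. Esrrb, an orphan nuclear receptor, had 13.6, 13.8 and 13.8 RPKM at 26 months, against 39.1, 39.6 and 38.0 RPKM at 9 months. Its log2 fold change was -1.50 ± 0.03 SE, adjusted p = 6.2e-09 in limma. Esrrb is also among the 10 marginal cell genes summed above, whose median for this comparison was -0.09. The part of marginal cells in its fall was not tested.

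The 13 protein-coding genes of the mitochondrial genome encode what the mitoribosome translates. For 9 against 1 month 0 rose and 7 fell, against 0 and 3 under Q, 0 and 10 under M, 0 and 5 under T and 0 and 5 under N, and for 26 against 9 months 6 rose and 0 fell, against 2 and 0 under Q, 8 and 0 under M, 6 and 0 under T and 0 and 0 under N. Their summed level lay between 37713 and 47714 RPKM at 1 month, between 18051 and 28750 RPKM at 9 months and between 32244 and 33582 RPKM at 26 months. The mitochondrial rRNA genes mt-Rnr1 and mt-Rnr2 are listed at 0 in every library.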

How the data were processed

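The deposited workbook holds RPKM values, which the authors made from bulk RNA-seq reads in CLC Genomics Workbench (version not given in the sources used here), with the builds mm10 and GRCm38 in the submitters' processing notes. The 9 value columns, 3 libraries at each of 3 ages, were used as deposited, and each is a multiple of 0.025 RPKM. The authors' own p-values, log2 fold changes and means per age were not used. RPKM keeps no depth and moves with what else the library holds.

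Values were taken as log2(RPKM + 0.1), so fold changes of low genes are understated, and 15806 genes, those that reached 0.1 RPKM in 3 or more libraries, were fitted with limma 3.58.1 in R 4.3.3, as 1 mean per age over all 9 libraries with a mean-variance trend. The study's methods name iDEP for its tests. P-values were adjusted over all genes tested by the Benjamini-Hochberg method, and a call is an adjusted p of at most 0.1, with or without an absolute log2 fold change of 1. The limma fit, but no other step, was tested on simulated log2 values with known changes. Sums and shares were computed in Python 3.11.15 with pandas 2.3.3, and figures with matplotlib 3.10.9.

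Exons, strands and neighbours were taken from GENCODE M21 (GRCm38), which matched 48349 of 48709 genes and all 77 members, and promoters from RefSeq on GRCm38.p6, with the first window where a gene had several. Members named are those past the fold threshold, the 5 with the largest change each way in each comparison, the 3 highest and 3 lowest levels in each subunit, those with a special place or role, and those linked to hearing loss. The members and gene lists were chosen with earlier results of these data known. Alternatives tried were a pseudocount of 1, median of ratios scaling, quantile normalization, other filters on low levels, removal of a lowess trend (span 0.3) on exon length, the library letter as a block, no mean-variance trend, fits on 2 ages, another placement of members, averaged near-identical libraries and each library left out.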

Additional observations from a re-analysis of the deposited data

How the results depend on the processing

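For the 73 calls of named members, 19 alternative settings gave 1387 values, of which 1300 kept their direction and their side of the threshold, 75 kept the direction only and 12 reversed. Averaging near-identical libraries gave 40 of the 75, so that 33 of the 73 calls held under it. The reversed ones were, for 9 against 1 month, Mrpl1 with quantile normalization (-0.20), median of ratios scaling (-0.0026) and the length trend removed (-0.017), Mrpl49 (-0.20) and Mrps6 (-0.10) with median of ratios scaling, Mrps2 with quantile normalization (-0.11) and median of ratios scaling (-0.13), and Mrps22 with quantile normalization (-0.027), and for 26 against 1 month, Mrpl48 with the same 3 settings (-0.12, -0.12 and -0.33) and Mrps30 with the length trend removed (-0.13). The subunit medians, large before small, were -0.63 and -0.50 with median of ratios scaling, -0.42 and -0.38 with quantile normalization and -0.38 and -0.34 with the length trend removed for 9 against 1 month, and -0.56 and -0.41, -0.44 and -0.36, and -0.37 and -0.29 for 26 against 1 month. With median of ratios scaling they were 0.056 and 0.090 for 26 against 9 months. Placing members as in structures gave a small subunit median of -0.17 for 9 against 1 month, and subunit ratios of 2.45, 2.25 and 2.40 at 1, 9 and 26 months. Without Mrpl42 and Mrps6 in the sums, chosen after seeing the data, the ratios were 2.10, 2.05 and 1.96 at these ages. Members that rose for 9 against 1 month numbered 1 with quantile normalization, 0 with median of ratios scaling, 2 with the length trend removed and 0 with near-identical libraries averaged, which left 34 that fell. For 26 against 1 month, 0 rose with median of ratios scaling and 1 with the length trend removed, and 28 fell with near-identical libraries averaged. At the fold threshold 1 member was lower with a pseudocount of 1, 5 with median of ratios scaling and 1 with the length trend removed, against 112, 692 and 507 of all genes. For 26 against 9 months, averaging near-identical libraries left 4 higher and 7 lower. Leaving out each library gave 16 to 32 higher and 22 to 26 lower for 26 against 9 months, 5 to 8 higher and 50 to 56 lower for 9 against 1 month, and 3 to 5 higher and 48 to 58 lower for 26 against 1 month, the 32 and the 5 without library B of 9 months. Of all genes, 25.7% to 30.5% were then higher and 30.3% to 38.4% lower for 26 against 9 months. For 9 against 1 month these shares were 51.7% to 57.9% and 15.6% to 18.8%, and for 26 against 1 month 49.8% to 55.1% and 19.3% to 23.3%. The large subunit medians then ran from -0.01 to 0.04, -0.38 to -0.31 and -0.31 to -0.29, and the small subunit medians from 0.0067 to 0.050, -0.23 to -0.19 and -0.17 to -0.15, in the same order of comparisons. The cause of these changes was not tested. The libraries share a letter across ages, and whether they also share a batch is unknown. Correlations of same-letter deviations ran from -0.05 to 0.23, the highest being B (0.23) and A (0.18) between 1 and 9 months. Pairs of different letters were not compared. With the letter as a replicate block 19 members were higher and 25 lower for 26 against 9 months, against 29.3% and 34.0% of all genes. For 9 against 1 month 6 members were higher and 54 lower, against 55.0% and 17.5% of all genes. For 26 against 1 month 3 were higher and 51 lower, against 52.8% and 21.4%. The number of mapped reads behind each RPKM value is unknown, and any counting error would weigh most on the lowest members.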
